A study of Homo sapiens with 36 samples.

Results

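The 50 genes described here are the MYC network and the factors that build ribosomes in the nucleolus. They were chosen by gene symbol from knowledge of the pathway, and all 50 are rows of the 37549 symbols with counts. Of them, 8 belong to the MYC network: MYC, MYCN and MAX as activators, and MXD1, MXD3, MXD4, MXI1 and MNT as antagonists. The other 42 are nucleolar: 6 of RNA polymerase I transcription, 7 protein components of small nucleolar ribonucleoproteins (snoRNPs), 14 of the small subunit processome and pre-40S particle, 10 of large subunit assembly, and 5 others. These 5, named chaperones and helicases below, are nucleolar chaperones, a helicase and other nucleolar proteins.

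MEC1, JVM2 and EHEB are established human B-cell leukaemia lines. Cells of each line were exposed to fludarabine at 50 µM, a purine analogue that interferes with DNA synthesis, to ibrutinib at 5 µM, an inhibitor of Bruton tyrosine kinase (BTK), to idelalisib at 10 µM, an inhibitor of phosphatidylinositol 3-kinase delta (PI3Kδ), or to the vehicle DMSO. MEC1 was exposed for 48 h, JVM2 for 72 h and EHEB for 96 h, and a difference between lines is therefore also one between times. RNA depleted of ribosomal RNA was sequenced in 3 libraries per group, 12 per line and 36 in all. The labels speak of triplicate treatment but not of separate culture days, so p-values measure the spread between these libraries.

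Libraries held 26590705 to 53538925 counts. Of the B-cell identity genes, PAX5 stood at 283 to 597 CPM (counts scaled to a library of fixed size) and MS4A1 at 77.3 to 357 over all libraries, against summed levels of 1.67 to 36.5 for the 7 T and NK cell markers and 6.91 to 63.8 for the 7 myeloid markers. The 8 stromal and epithelial markers summed to 4.93 to 88.0. These sums moved with treatment. The 6 B-cell genes MS4A1, CD79A, CD79B, PAX5, CD22 and BLNK together went from 1303 to 1333 CPM with DMSO to 685 to 749 with fludarabine in JVM2, from 1621 to 1704 to 945 to 1058 in EHEB, and from 1049 to 1136 to 910 to 921 in MEC1, where ibrutinib and idelalisib libraries held 1633 to 1805. The myeloid markers, of which 1, 1 and 2 were at 0 in MEC1, JVM2 and EHEB, went in MEC1 from 6.91 to 8.59 CPM with DMSO to 25.5 to 29.3 with fludarabine, 29.9 to 33.2 with ibrutinib and 43.0 to 45.9 with idelalisib. In JVM2 they went from 10.6 to 13.6 to 39.2 to 40.4 with fludarabine and 36.03 to 39.4 with idelalisib, and in EHEB from 20.2 to 24.5 to 53.5 to 63.8 with fludarabine. The part of these shifts in the results on the members was not tested. The library numbers in the labels form separate series. With libraries named by line and number, DMSO and fludarabine have neighbouring numbers within a line (MEC1_37 to MEC1_48, JVM2_85 to JVM2_96 and EHEB_133 to EHEB_144), and ibrutinib and idelalisib another run of numbers (MEC1_184 to MEC1_192, JVM2_232 to JVM2_240 and EHEB_280 to EHEB_288) without DMSO. For the kinase inhibitors against DMSO, and for fludarabine against either inhibitor, drug and number series cannot be told apart. Idelalisib against ibrutinib lies within a series. Here the 2 doses differ, so the values compare 10 µM of the one drug with 5 µM of the other. In 3 libraries, DMSO library MEC1_38, idelalisib library MEC1_192 and DMSO library JVM2_87, MYC stood far under its level in the partner libraries, and the calls that are lost without them are given with the levels of MYC.

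As background, MYC is a transcription factor that pairs with MAX and binds the E-box. MXD proteins, MXI1 and MNT also pair with MAX, occupy the same sites and repress. Ribosome biogenesis is among the best known programmes that MYC drives. RNA polymerase I transcribes the ribosomal RNA precursor, snoRNPs modify it, the small subunit processome and the large subunit factors fold and cleave it, and the particles then leave for the cytoplasm. B cells enlarge their nucleoli when they are activated, and signalling through PI3K and the mTOR kinase is known to feed into this programme.

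The canonical E-box CACGTG, which reads the same on both strands, was common in the promoters of these genes. It was searched in windows of 250 bases before to 50 bases after the transcription start (RefSeq, GRCh38.p14). A window was given for 44 of the 50 genes, not for MYC, RRS1, NOLC1, BOP1, RRP12 and NOP58. The motif stood in 18 of the 44 (40.9%), against 8.77% of all 27305 genes with a window and 10.9% of the 15843 protein-coding ones. By role it was found in 8 of 13 small subunit genes (61.5%), 4 of 8 large subunit genes (50%) and 0 of 6 RNA polymerase I genes. The variant CACGCG, or CGCGTG on the other strand, stood in 15 of the 44 (34.1%), against 18.1% of protein-coding genes. It stood in 4 of the 6 RNA polymerase I genes (66.7%). The match is a description of the letters, not evidence of binding. Among the genes that the comparisons below turn on, NCL, PA2G4, WDR12, WDR75 and POLR1B had a window without CACGTG, and RRP12 had no window. The sites of 7 others that have the motif are shown with the bases on either side. They are read along the strand of the gene, with the motif in capitals.
DDX21: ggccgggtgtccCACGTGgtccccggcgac
FBL: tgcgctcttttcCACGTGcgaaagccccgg
MYBBP1A: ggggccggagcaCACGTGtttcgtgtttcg
NOP2: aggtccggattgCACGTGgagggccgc
UTP20: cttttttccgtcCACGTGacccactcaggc
RRP9: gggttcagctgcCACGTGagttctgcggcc
UTP4: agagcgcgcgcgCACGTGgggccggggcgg
The site of DDX21 (chr10:68956604-68956633, + strand) began at −31 with the start base counted as 1. That of FBL (chr19:39846356-39846385, − strand) began at 7, that of MYBBP1A (chr17:4555340-4555369, − strand) at 28 and that of NOP2 (chr12:6568242-6568268, − strand) at 36, all 3 inside the first transcribed bases. UTP20 (chr12:101280083-101280112, + strand), RRP9 (chr3:51941892-51941921, − strand) and UTP4 (chr16:69132621-69132650, + strand) had it beginning upstream, at −10, −5 and −16.

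In the DMSO libraries NPM1 (nucleophosmin) and FBL (fibrillarin) had the highest levels of the 50 in every line, per kilobase of exon and with all 36 libraries scaled together. NPM1 stood at 128 CPM per kb in MEC1, 159 in JVM2 and 91.3 in EHEB (means of 3 DMSO libraries), and FBL at 120.5, 91.1 and 57.4. In MEC1 their ranges overlapped. NCL (nucleolin), PA2G4 and NOB1 filled the next places in an order that varied with the line. Of the 50 genes, 49 passed the filter on low counts in every line. MYCN passed in JVM2 alone, with 0 to 21 counts in any library of the series and 0 in all 12 of MEC1, and is not described further.

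Replicates of these genes lay close together. The median ratio of the highest to the lowest replicate over 588 gene and group pairs was 1.12, and it exceeded 2 in 16 pairs that came from 4 genes, MYC, MXD3, MXI1 and GAR1. Values below are CPM scaled by the trimmed mean of M-values (TMM) within a line, and fold changes are log2 values with their standard errors. A gene is called when the adjusted p of edgeR's quasi-likelihood test is under 0.05 over all genes tested.

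Members were called with every drug in every line, and the balance of higher to lower differed from drug to drug. With ibrutinib more members rose than fell (24 and 9 in MEC1, 18 and 9 in JVM2, 8 and 3 in EHEB), and with idelalisib more fell than rose (19 and 14, 19 and 12, 22 and 2). Fludarabine split by line, with 7 higher and 15 lower in MEC1, 20 and 11 in JVM2, and 19 and 4 in EHEB. Over the 9 comparisons 46 of the 50 genes were called at least once, 26 of them in both directions, 9 only higher and 11 only lower. MYC, MYCN, GAR1 and RRS1 were never called, and no gene was called in all 9. The 3 drugs of a line are set against the same 3 DMSO libraries, so their comparisons are not independent. In RNA pooled from many cells, fewer cells of a kind and less RNA per cell cannot be told apart.

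These counts stand against a background in which a large share of all genes was called. With fludarabine 21.2% of all genes were called higher and 22.7% lower in MEC1, 23.9% and 23.3% in JVM2 (47.2% in all), and 18.4% and 19.2% in EHEB. With ibrutinib the shares were 23.7% and 23.9% in MEC1, 14.5% and 15.0% in JVM2, and 8.5% and 11.2% in EHEB, where 19.7% of all genes were called in either direction. With idelalisib they were 27.6% and 27.4% (55% in all), 21.6% and 22.6%, and 15.1% and 18.2%. Among the members, 49%, 36% and 16.3% rose with ibrutinib in MEC1, JVM2 and EHEB, each above its background. The 38.8%, 38% and 44.9% that fell with idelalisib were likewise above theirs, most of all in EHEB. With fludarabine, 40% of members rose in JVM2 and 38.8% in EHEB, against 14.3% in MEC1, below the background there.

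**Figure D1:**
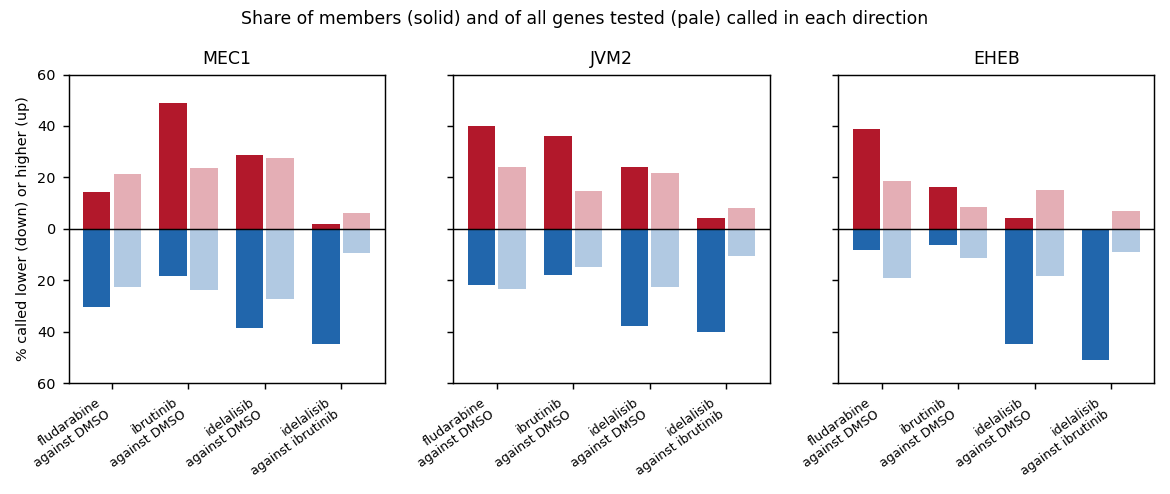
Share of members (solid bars) and of all genes tested (pale bars) called higher (above 0) or lower (below 0) in 4 comparisons per line, in percent. In the idelalisib against ibrutinib comparison 44.9%, 40% and 51.0% of members were lower in MEC1, JVM2 and EHEB against 9.37%, 10.5% and 9.09% of all genes; the MEC1 fludarabine bars reverse when counts are scaled by library size alone.

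Scaling mattered for the balance of some counts. When libraries were scaled by total counts instead of TMM, the median of all genes moved by 0.25 with fludarabine in MEC1, 0.20 in JVM2 and 0.11 in EHEB, by 0.10 with ibrutinib in EHEB and by 0.10 with idelalisib in JVM2. The split of higher to lower members then became 16 to 9 with fludarabine in MEC1, 27 to 9 with fludarabine and 15 to 15 with idelalisib in JVM2, and 17 to 2 with ibrutinib and 6 to 13 with idelalisib in EHEB. The median of the members lay at −0.13 against 0.06 for all genes with fludarabine in MEC1, and at 0.12 against 0.31 under the other scaling, so their distance from other genes hardly moved. Individual libraries weighed on EHEB. Without idelalisib library EHEB_288, 15 members in place of 24 were called with idelalisib, and without DMSO library EHEB_134 or ibrutinib library EHEB_280, 7 in place of 11 with ibrutinib.

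The clearest pattern was between the kinase inhibitors. With idelalisib set against ibrutinib, far more members were lower than higher in all 3 lines, and nearly all of those called lower were nucleolar. In MEC1, 22 of 49 members were lower and 1 was higher, in JVM2 20 of 50 and 2, and in EHEB 25 of 49 and 0. The backgrounds were 9.37% lower and 6.01% higher in MEC1, 10.5% and 8.21% in JVM2, and 9.09% and 6.77% in EHEB. The median log2 fold change of the members was −0.33, −0.19 and −0.27, against −0.0025, 0.0097 and −0.00034 for all genes tested. The groups of 3 libraries did not overlap for 32, 25 and 31 members that were lower, where 18.4%, 19.9% and 17.3% of all genes were lower without overlap.

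Under library size scaling the median of all genes moved by −0.17 in MEC1, and the split there became 0 higher and 33 lower. In JVM2 the count of members called fell from 22 to 14 without ibrutinib library JVM2_232. Over all alternatives, libraries left out included, MEC1 had 18 to 33 lower members, JVM2 had 13 to 21 and EHEB had 19 to 26, and the higher ones numbered 0 to 2, 1 to 3 and 0 to 1. Without the 3 libraries low in MYC, 18 members were lower in MEC1 and 18 in JVM2.

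**Figure D2:**
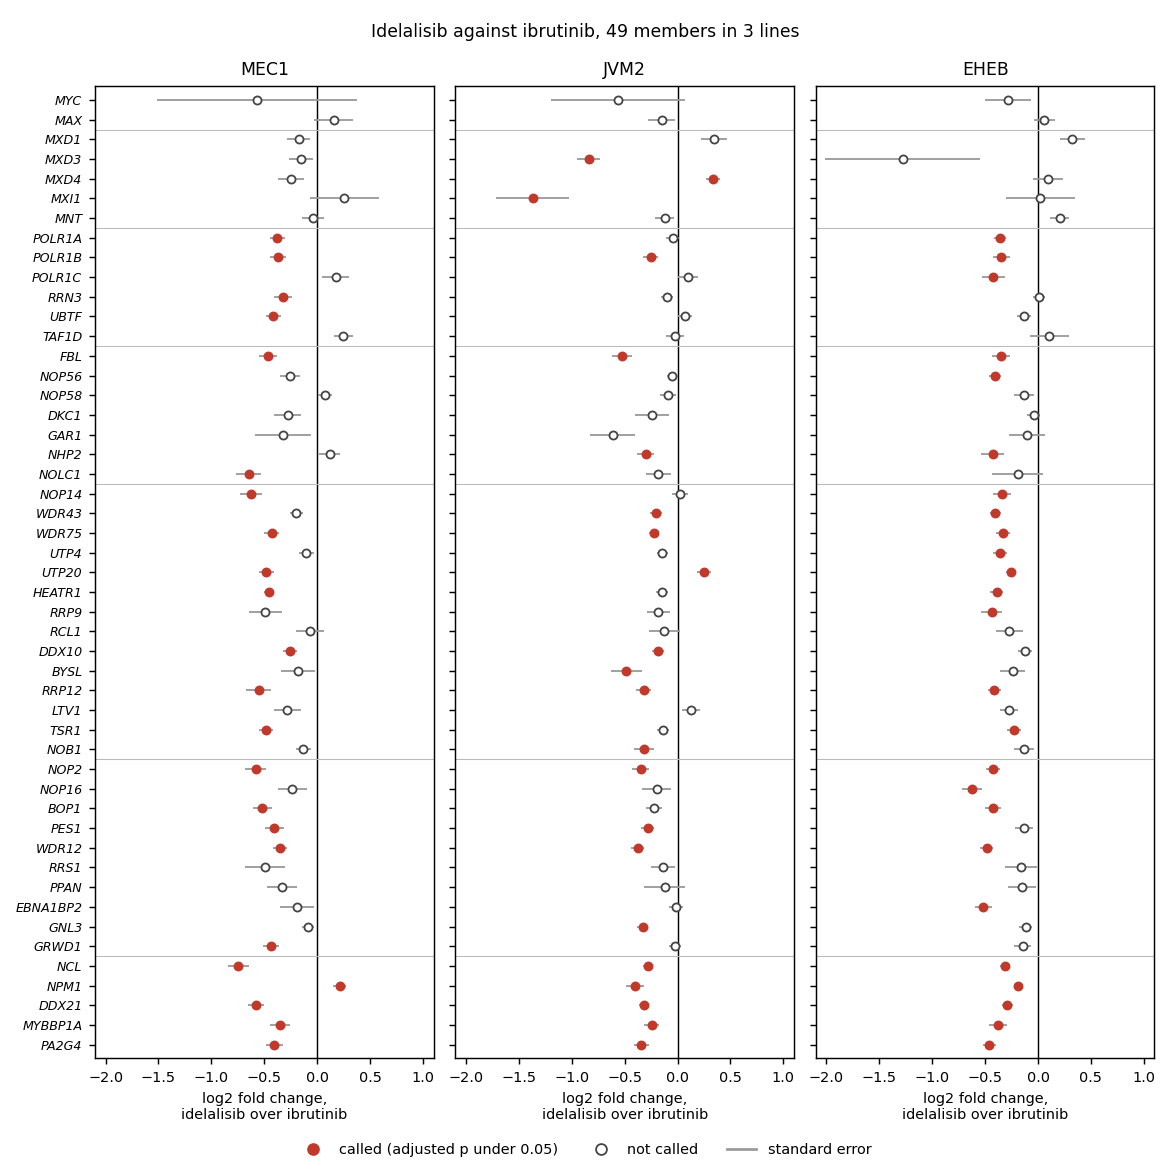
Log2 fold change of idelalisib (10 µM) over ibrutinib (5 µM) for 49 members in each line, in the order of their roles, with bars of 1 standard error; filled points were called. Most points lie left of 0 in all 3 panels, and the 5 chaperones and helicases at the bottom are called in every line, NPM1 higher in MEC1.

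The same 10 genes were called lower in all 3 lines: NCL, DDX21, PA2G4, MYBBP1A, FBL, NOP2, WDR12, RRP12, WDR75 and POLR1B. They make up 20.4% of the 49 members tested in every line, where 1.48% of the 15181 genes tested in all lines were lower in each. Of the 49, 34 members (69.4%) had a fold change below 0 in all 3 lines, against 18.3% of all genes, and 0 members had one above 0 in all 3, against 16.3% of all genes. Of the 10 genes, 7 kept the call in every line under every alternative run (DDX21, NCL, NOP2, PA2G4, RRP12, WDR12 and WDR75).

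NCL encodes nucleolin, a major RNA-binding protein of the nucleolus. In MEC1 it stood at 415.96, 320.7 and 414.8 CPM with ibrutinib and at 226.3, 233.7 and 226.8 with idelalisib. In JVM2 the levels were 317.4, 311.8 and 302.03 against 246.7, 260.8 and 260.6. In EHEB they were 327.2, 325.4 and 356.7 against 273.1, 272.2 and 267.2. The libraries did not overlap in any line, and the gap was widest in MEC1. The log2 fold changes were −0.75 ± 0.10 (adjusted p = 0.00131), −0.28 ± 0.05 (adjusted p = 0.00179) and −0.31 ± 0.05 (adjusted p = 0.00184) in that order of lines.

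RRP12, a factor needed for export of both subunits, held 47.5, 38.1 and 42.4 CPM with ibrutinib and 28.6, 25.7 and 33.1 with idelalisib in MEC1. In JVM2 it held 27.8, 25.4 and 28.01 against 21.4, 23.5 and 20.1. In EHEB it held 49.7, 49.1 and 57.1 against 38.9, 39.9 and 38.4. All 3 idelalisib libraries lay under all 3 ibrutinib libraries in each line. The fold changes were −0.55 ± 0.12 (adjusted p = 0.0104), −0.32 ± 0.07 (adjusted p = 0.00768) and −0.41 ± 0.06 (adjusted p = 0.00121).

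NOP2, a methyltransferase of the large subunit RNA, was at 42.4, 33.8 and 39.8 CPM with ibrutinib and 24.8, 25.2 and 27.5 with idelalisib in MEC1. The JVM2 values were 31.7, 32.6 and 35.4 and 24.8, 24.9 and 28.6. The EHEB values were 53.7, 53.1 and 55.02 and 39.3, 40.2 and 41.02. Against DMSO this gene rose with ibrutinib in all 3 lines and was not called with idelalisib in any. The difference between the drugs was −0.58 ± 0.10 (adjusted p = 0.00402), −0.35 ± 0.08 (adjusted p = 0.0122) and −0.43 ± 0.07 (adjusted p = 0.00142).

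WDR12, a partner of PES1 and BOP1 in large subunit maturation, showed 47.4, 45.8 and 49.8 CPM with ibrutinib and 38.03, 35.1 and 38.98 with idelalisib in MEC1. In JVM2 it showed 25.8, 26.7 and 28.4 and 20.6, 21.01 and 20.7. In EHEB it showed 38.7, 35.7 and 36.4 and 27.4, 25.8 and 25.9. Again no idelalisib library reached an ibrutinib library of its line. The fold changes were −0.35 ± 0.07 (adjusted p = 0.00646), −0.38 ± 0.06 (adjusted p = 0.00171) and −0.49 ± 0.06 (adjusted p = 0.00035).

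DDX21, an RNA helicase that acts in ribosomal RNA transcription and processing, had 310.4, 263.9 and 315.1 CPM with ibrutinib and 197.3, 199.2 and 198.8 with idelalisib in MEC1. In JVM2 it had 130.97, 122.3 and 133.7 and 106.7, 100.99 and 102.5. In EHEB it had 189.8, 186.9 and 196.2 and 165.97, 150.8 and 152.1. Its fold changes were −0.58 ± 0.07 (adjusted p = 0.00111), −0.32 ± 0.05 (adjusted p = 0.000829) and −0.29 ± 0.05 (adjusted p = 0.00206). PA2G4, a growth-regulated RNA-binding protein, differed by −0.40 ± 0.08, −0.34 ± 0.07 and −0.46 ± 0.06, and WDR75, a processome subunit, by −0.43 ± 0.07, −0.22 ± 0.05 and −0.34 ± 0.07 in the same order of lines.

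FBL encodes the methyltransferase of the box C/D snoRNPs. It was at 177.4, 149.8 and 176.03 CPM with ibrutinib and 122.4, 122.5 and 119.5 with idelalisib in MEC1. In JVM2 it was at 167.2, 152.8 and 140.2 and 110.1, 112.9 and 97.1, and in EHEB at 95.1, 94.2 and 113.8 and 71.3, 84.9 and 81.4. The fold changes were −0.47 ± 0.09 (adjusted p = 0.00514), −0.52 ± 0.09 (adjusted p = 0.00324) and −0.35 ± 0.08 (adjusted p = 0.0146). In EHEB the call was lost without idelalisib library EHEB_286 (adjusted p = 0.0603).

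POLR1B, a core subunit of RNA polymerase I, was lower by −0.37 ± 0.08, −0.25 ± 0.07 and −0.35 ± 0.08, and MYBBP1A, a nucleolar protein that binds MYB, by −0.35 ± 0.09, −0.25 ± 0.07 and −0.38 ± 0.08. Of the 10, these 2 lost their calls under the most alternatives. With 1 library left out, those of POLR1B were lost in JVM2 without any of ibrutinib libraries JVM2_232 and JVM2_234 and idelalisib libraries JVM2_238 and JVM2_239 (adjusted p from 0.0548 to 0.109), and in EHEB without any of ibrutinib libraries EHEB_280 and EHEB_282 and idelalisib library EHEB_288 (0.0587 to 0.0738). Those of MYBBP1A were lost in MEC1 without any of ibrutinib libraries MEC1_184 and MEC1_186 and idelalisib libraries MEC1_191 and MEC1_192 (0.0649 to 0.0852), and in JVM2 without any of ibrutinib libraries JVM2_232 and JVM2_234 and idelalisib libraries JVM2_239 and JVM2_240 (0.0844 to 0.110). In JVM2 both were also lost under library size scaling, with no filter and from only the 6 libraries compared (0.0508 to 0.0761), and MYBBP1A with a mean of at least 5 CPM (0.0540). In MEC1 MYBBP1A was lost with no filter (0.0568) and from only the 6 libraries (0.0988), and without the 3 libraries low in MYC both missed the threshold (0.0519 for POLR1B and 0.0872 for MYBBP1A). Without any single library the number of genes called lower in all 3 lines was 8 to 11.

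By role, the chaperones and helicases gave the most even picture, with 4, 5 and 5 of 5 called lower in MEC1, JVM2 and EHEB. The exception was NPM1, which was higher with idelalisib in MEC1 (0.21 ± 0.06, adjusted p = 0.0383) and lower in JVM2 (−0.40 ± 0.09, adjusted p = 0.00961) and EHEB (−0.19 ± 0.04, adjusted p = 0.00906). The MEC1 call of NPM1 was lost without the 3 libraries low in MYC (adjusted p = 0.151). Of the 14 small subunit genes 7, 6 and 9 were lower, and of the 10 large subunit genes 5, 4 and 5. Among the 6 RNA polymerase I genes 4, 1 and 3 were lower, and among the 7 snoRNP proteins 2, 2 and 3. UTP20, a processome scaffold, went against the rest in JVM2, where it was higher with idelalisib by 0.25 ± 0.07, whereas it was lower in MEC1 (−0.48 ± 0.07) and EHEB (−0.25 ± 0.05).

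The MYC network did not share this pattern in number. Of its 7 tested genes 0 were called in MEC1 and EHEB. In JVM2, of 8 tested, MXI1 (−1.37 ± 0.34, adjusted p = 0.0187) and MXD3 (−0.84 ± 0.11, adjusted p = 0.000457) were lower and MXD4 was higher (0.34 ± 0.07, adjusted p = 0.00529). MYC itself differed by −0.57 ± 0.94 (adjusted p = 0.784), −0.56 ± 0.63 (adjusted p = 0.601) and −0.28 ± 0.22 (adjusted p = 0.453), so no difference was detectable with the spread of its libraries. Nucleolar genes with CACGTG in their window were called lower in 7, 8 and 10 of 16 cases. Those with a window but no CACGTG were lower in 12, 9 and 13 of 21. The median fold changes of the groups were −0.34 and −0.33 in MEC1, −0.23 and −0.19 in JVM2, and −0.32 and −0.31 in EHEB.

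Other genes of the pathway come from lists written for this purpose with earlier results of these data known. Of 20 other well known MYC-activated genes (19 tested in EHEB), 6, 11 and 12 were lower with idelalisib than with ibrutinib in MEC1, JVM2 and EHEB, and 0 were higher. The 108 other genes of RNA polymerase I, snoRNPs and subunit assembly gave 44 lower and 4 higher in MEC1, 15 and 4 in JVM2, and 25 and 0 in EHEB. The lower ones were 40.7%, 13.9% and 23.1% of the list, against 9.37%, 10.5% and 9.09% of all genes, so the JVM2 share was near the background. Their medians were −0.23, −0.08 and −0.14, nearer to 0 than those of the members. Of the 14 exosome genes, which trim ribosomal RNA precursors, 3 were lower in each line and 1, 0 and 0 higher, and of the 21 RNA polymerase III genes 5, 0 and 6 were lower and 0 higher.

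The MYC transcript was dominated by a few libraries. In MEC1 it stood at 210.9, 11.2 and 169.5 CPM with DMSO and at 155.7, 162.1 and 9.36 with idelalisib. The fludarabine libraries held 90.2, 86.97 and 79.8 and the ibrutinib libraries 208.2, 92.3 and 184.996. DMSO library MEC1_38 and idelalisib library MEC1_192 each lay 17.0-fold under the mean of their 2 partners. In JVM2 the levels were 86.01, 105.9 and 9.67 with DMSO, 71.1, 71.3 and 59.5 with fludarabine, 52.4, 43.6 and 87.4 with ibrutinib and 59.4, 38.1 and 26.8 with idelalisib, where DMSO library JVM2_87 lay 9.93-fold under its partners. EHEB had no such library, with 25.6, 38.6 and 34.6 with DMSO, 38.2, 30.5 and 37.8 with fludarabine, 19.9, 33.5 and 27.2 with ibrutinib and 16.9, 25.6 and 23.6 with idelalisib.

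In those 3 libraries 0.41%, 0.43% and 0.52% of the genes with at least 1 CPM moved over 4-fold from their partners, and the summed nucleolar genes stood at 0.96 to 1.06 of the partners' level. PVT1, the neighbouring non-coding gene, held 802 counts in DMSO library MEC1_38 against 683 and 649 in its partners. MYC was called in none of the 9 comparisons with DMSO. Its fold changes ranged from −0.70 ± 0.63 with idelalisib in JVM2 to 0.31 ± 0.94 with ibrutinib in MEC1, and in EHEB it was 0.11 ± 0.21 (adjusted p = 0.736) with fludarabine, −0.29 ± 0.22 (adjusted p = 0.388) with ibrutinib and −0.58 ± 0.22 (adjusted p = 0.0625) with idelalisib.

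Without the 3 libraries, which were picked after their values were seen, MYC was called lower with fludarabine in MEC1 (−1.17 ± 0.27, adjusted p = 0.00817) and with idelalisib in JVM2 (−1.22 ± 0.33, adjusted p = 0.0163). These values are descriptions, as the libraries left out were chosen by the level of this gene. Of 327 calls of members in the comparisons of MEC1 and JVM2, 30 were lost without the 3 libraries, 8 others were gained and 0 changed sign. Against DMSO in MEC1 they included MXD3 and DDX21 with fludarabine (adjusted p = 0.211 and 0.0552), RRP9 with ibrutinib (0.0875), and POLR1A and NOP56 with idelalisib (0.120 and 0.0559). In JVM2 they included FBL with ibrutinib (0.119). WDR75 was no longer higher with fludarabine than with idelalisib in MEC1 (0.0681). Fludarabine against idelalisib in EHEB, where no library was doubted, gave 0.69 ± 0.22 (adjusted p = 0.0246), higher with fludarabine.

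**Figure D3:**
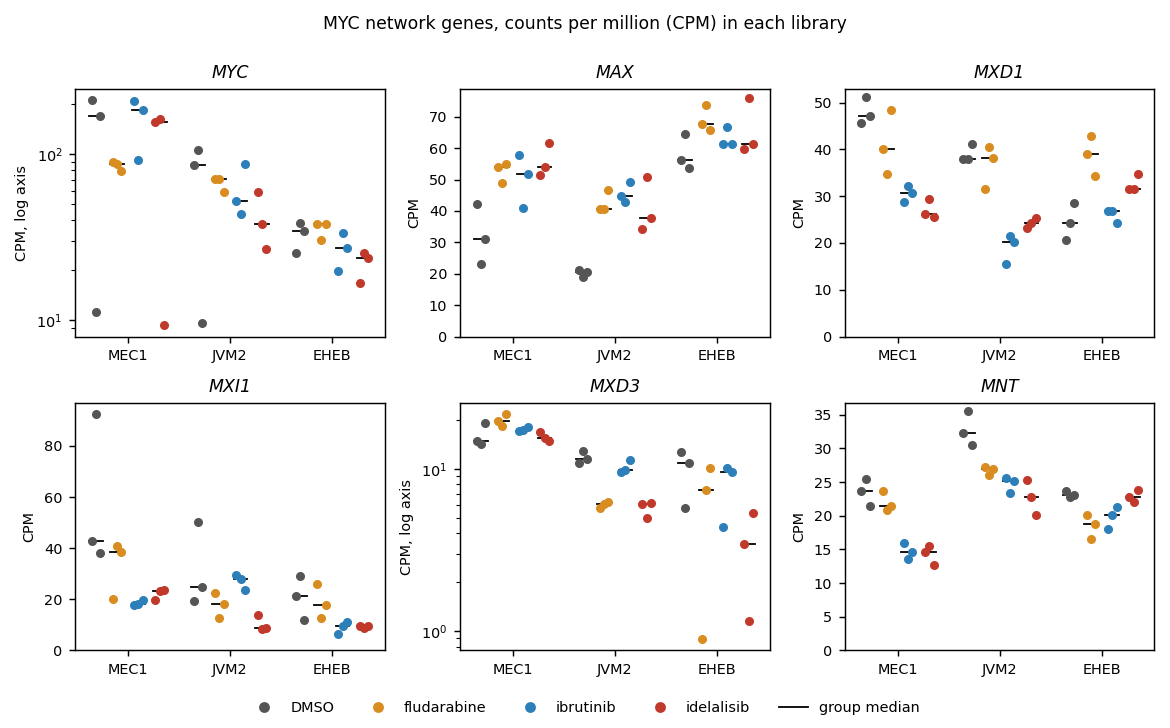
Level of 6 MYC network genes in each of the 36 libraries, in CPM (log axes for MYC and MXD3), with points coloured by treatment and a line at the median of each group of 3. MYC falls to 11.2, 9.36 and 9.67 CPM in 1 MEC1 DMSO, 1 MEC1 idelalisib and 1 JVM2 DMSO library, and MAX lies above the DMSO libraries with every drug in JVM2.

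MAX, the shared partner of the network, rose with every drug in MEC1 and JVM2. In JVM2 it had 21.04, 19.1 and 20.4 CPM with DMSO, 40.7, 40.7 and 46.6 with fludarabine, 44.8, 42.7 and 49.1 with ibrutinib and 34.3, 50.8 and 37.8 with idelalisib, and no treated library was as low as a DMSO one. The fold changes were 1.08 ± 0.13 (adjusted p = 4.69e-05), 1.17 ± 0.13 (adjusted p = 9.15e-05) and 1.02 ± 0.13 (adjusted p = 9.15e-05). In MEC1, from 42.1, 23.1 and 31.1 CPM with DMSO, it rose by 0.72 ± 0.19, 0.64 ± 0.19 and 0.80 ± 0.19. The ibrutinib call in MEC1 was lost without ibrutinib library MEC1_184 (adjusted p = 0.0715). In EHEB the changes of 0.25 ± 0.10, 0.12 ± 0.10 and 0.17 ± 0.10 were not called. The ibrutinib effect was larger in JVM2 than in EHEB by 1.07 ± 0.24 (adjusted p = 0.0081) in the interaction test of edgeR.

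Among the antagonists, MXI1 and MNT fell where they were called. MXI1 in MEC1 was at 42.8, 92.6 and 37.98 CPM with DMSO, 19.98, 40.9 and 38.6 with fludarabine, 17.6, 18.2 and 19.8 with ibrutinib and 19.8, 23.1 and 23.5 with idelalisib, so both inhibitors left it under every DMSO library. It fell with ibrutinib (−1.64 ± 0.33, adjusted p = 0.00174) and idelalisib (−1.39 ± 0.33, adjusted p = 0.00396) in MEC1, with idelalisib in JVM2 (−1.59 ± 0.35, adjusted p = 0.00328), and with both in EHEB (−1.20 ± 0.33 and −1.17 ± 0.33). The EHEB calls were not stable. They were lost with ibrutinib without any of DMSO libraries EHEB_133 and EHEB_134 and ibrutinib libraries EHEB_280 and EHEB_281 (adjusted p from 0.0636 to 0.106), and with idelalisib without any of DMSO library EHEB_134 and idelalisib libraries EHEB_287 and EHEB_288 (0.0510 to 0.0792). MNT, with 23.6, 25.4 and 21.5 CPM in MEC1 DMSO, fell to 15.98, 13.5 and 14.7 with ibrutinib and 14.6, 15.6 and 12.7 with idelalisib. It was lower in 6 of the 9 comparisons, by −0.72 to −0.30, and its fludarabine call in JVM2 was lost without DMSO library JVM2_86 (0.0697) or fludarabine library JVM2_95 (0.0516).

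MXD1 and MXD4 moved by line. MXD1 went down with the inhibitors in MEC1, from 45.6, 51.1 and 47.1 CPM with DMSO to 28.7, 32.3 and 30.6 with ibrutinib and 26.1, 29.3 and 25.6 with idelalisib. In JVM2 it went from 38.03, 37.9 and 41.2 to 15.5, 21.4 and 20.3 and 23.1, 24.2 and 25.3. In EHEB it rose instead with fludarabine, from 20.7, 24.3 and 28.5 to 38.9, 42.8 and 34.2 (0.66 ± 0.12, adjusted p = 0.00111), and with idelalisib (0.41 ± 0.12, adjusted p = 0.0207). The latter call was lost without any of DMSO libraries EHEB_133 and EHEB_134 and idelalisib library EHEB_288 (adjusted p from 0.0513 to 0.0666). The idelalisib effect on MXD1 was lower in MEC1 than in EHEB by the interaction test, −1.28 ± 0.14 (adjusted p = 2.69e-06).

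MXD4 rose with both inhibitors in MEC1 (0.84 ± 0.12 and 0.59 ± 0.12) and with fludarabine and idelalisib in JVM2 (0.47 ± 0.07 and 0.43 ± 0.07). MXD3 fell in JVM2 with fludarabine (−0.97 ± 0.11, adjusted p = 3.13e-05) and idelalisib (−1.04 ± 0.11, adjusted p = 2.58e-05), where it went from 10.9, 12.9 and 11.5 CPM to 5.76, 6.08 and 6.25 and 6.06, 4.999 and 6.13. Its rise with fludarabine in MEC1 (0.31 ± 0.12, adjusted p = 0.0481) was lost without any of DMSO libraries MEC1_37 and MEC1_38 and fludarabine libraries MEC1_46, MEC1_47 and MEC1_48 (adjusted p from 0.05002 to 0.175). In EHEB its replicates spread from 0.89 to 10.1 CPM with fludarabine and it was not called.

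In RNA polymerase I transcription, more called members rose than fell with ibrutinib in each line. So it was with fludarabine in JVM2 and EHEB, and with idelalisib in JVM2 only. With fludarabine 2 of 6 rose and 2 fell in MEC1, 3 and 1 in JVM2, and 4 and 0 in EHEB. With ibrutinib the numbers were 4 and 0, 3 and 1, and 2 and 0, and with idelalisib 1 and 2, 3 and 2, and 1 and 1. Of all genes 27.6% rose and 27.4% fell with idelalisib in MEC1, 21.6% and 22.6% in JVM2, and 15.1% and 18.2% in EHEB. The all-gene shares for the other drugs are given above, and 6 genes are few to set against them. POLR1C, a subunit shared by polymerases I and III, showed the largest rise of the nucleolar genes with idelalisib in MEC1. There it stood at 9.39, 9.92 and 9.89 CPM with DMSO, 16.9, 13.5 and 13.1 with fludarabine, 18.5, 19.4 and 18.4 with ibrutinib and 22.9, 17.3 and 23.5 with idelalisib, every treated library above every DMSO one. The fold changes were 0.58 ± 0.13 (adjusted p = 0.00386), 0.95 ± 0.13 (adjusted p = 0.000113) and 1.12 ± 0.13 (adjusted p = 2.18e-05).

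POLR1A, the largest subunit of the polymerase, rose with fludarabine in all 3 lines. In JVM2 it went from 117.5, 108.2 and 106.4 CPM to 195.04, 192.5 and 200.6 (0.82 ± 0.06, adjusted p = 1.49e-06), and in EHEB from 158.1, 145.97 and 145.5 to 212.6, 202.8 and 211.6 (0.48 ± 0.06, adjusted p = 4.92e-05). In MEC1 the rise was smaller (0.26 ± 0.07, adjusted p = 0.012) and was lost without DMSO library MEC1_39 (adjusted p = 0.0585). With idelalisib it rose in JVM2 (0.56 ± 0.06) and fell in MEC1 and EHEB (−0.18 ± 0.07 and −0.23 ± 0.06). The fall in MEC1 was lost without any of DMSO libraries MEC1_37 and MEC1_38 and idelalisib libraries MEC1_190 and MEC1_191 (0.0507 to 0.164), the fall in EHEB without DMSO library EHEB_133 (0.0520), and the rise with ibrutinib in MEC1 (0.19 ± 0.07) without any of DMSO libraries MEC1_37 and MEC1_39 and ibrutinib libraries MEC1_184 and MEC1_186 (0.0841 to 0.184).

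UBTF, the upstream binding factor that keeps ribosomal DNA open, rose with every drug in JVM2 and EHEB. In JVM2 it was at 54.8, 58.2 and 61.05 CPM with DMSO, 82.3, 72.1 and 74.6 with fludarabine, 91.6, 98.2 and 101.3 with ibrutinib and 101.2, 105.9 and 98.8 with idelalisib, without overlap with DMSO. The fold changes were 0.40 ± 0.07 (adjusted p = 0.000479), 0.74 ± 0.07 (adjusted p = 2.23e-05) and 0.81 ± 0.07 (adjusted p = 3.16e-06). In MEC1 it was lower with idelalisib (−0.25 ± 0.07, adjusted p = 0.0123), a call lost without idelalisib library MEC1_190 (0.0562), and in EHEB the idelalisib call (0.26 ± 0.07) was lost without idelalisib library EHEB_287 (0.0538). The idelalisib effect was lower in MEC1 than in JVM2 by the interaction test, −1.13 ± 0.10 (adjusted p = 2.33e-07). TAF1D, a subunit of the selectivity factor SL1, fell with every drug in JVM2, from 80.7, 92.9 and 99.1 CPM to 57.5, 52.9 and 61.1 with fludarabine, 56.3, 49.6 and 52.95 with ibrutinib and 55.5, 51.2 and 49.7 with idelalisib. It also fell with fludarabine in MEC1 (−0.72 ± 0.09, adjusted p = 7.21e-05) and was not called in EHEB.

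The snoRNP proteins split between FBL and its partners. FBL fell in 8 of 9 comparisons, while NOP56, which sits beside it in the same box C/D particle, rose in 7. FBL in JVM2 went from 177.8, 186.4 and 202.99 CPM with DMSO to 87.2, 84.6 and 71.4 with fludarabine and 110.1, 112.9 and 97.1 with idelalisib, changes of −1.22 ± 0.10 (adjusted p = 1.62e-06) and −0.82 ± 0.09 (adjusted p = 4.3e-05). In MEC1 it went from 256.1, 244.1 and 300.2 to 162.5, 173.6 and 160.2 with fludarabine (−0.69 ± 0.09, adjusted p = 7.11e-05). With ibrutinib the fall was −0.67 ± 0.09 in MEC1 and −0.30 ± 0.09 in JVM2, the latter lost without any of DMSO libraries JVM2_86 and JVM2_87 and ibrutinib libraries JVM2_233 and JVM2_234 (adjusted p from 0.0699 to 0.154), and in EHEB it missed the threshold (−0.26 ± 0.08, adjusted p = 0.052).

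NOP56 in EHEB went from 56.6, 51.8 and 54.9 CPM with DMSO to 76.2, 72.6 and 74.1 with fludarabine (0.45 ± 0.05, adjusted p = 5.36e-05) and 69.5, 70.9 and 72.8 with ibrutinib (0.38 ± 0.05, adjusted p = 0.000528), and stood at 55.6, 52.9 and 52.4 with idelalisib (−0.02 ± 0.05, adjusted p = 0.796). It rose with every drug in JVM2 (0.41 ± 0.05, 0.37 ± 0.05 and 0.32 ± 0.05) and with both inhibitors in MEC1 (0.57 ± 0.09 and 0.32 ± 0.09), the last lost without DMSO library MEC1_37 (0.0629) or idelalisib library MEC1_190 (0.0692). NOP58, the third protein of that particle, rose with ibrutinib in MEC1 and EHEB and with idelalisib in MEC1, and fell with fludarabine in MEC1. NHP2, of the box H/ACA particle, went down with fludarabine in MEC1 from 67.4, 60.8 and 69.5 to 30.9, 33.99 and 40.1 CPM (−0.91 ± 0.10, adjusted p = 3.03e-05).

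Of the nucleolar genes 10 carry 36 snoRNA genes inside them on the same strand, NCL and NOP56 among them. Their median change was 0.56 with ibrutinib in MEC1 against 0.20 in the 32 without one, and 0.28 against −0.18 with idelalisib in MEC1. In EHEB with idelalisib it was −0.01 against −0.23, and in JVM2 0.06 against 0.01. With ibrutinib it was 0.18 against 0.20 in JVM2 and 0.08 against 0.10 in EHEB. With fludarabine the host genes had the lower median in each line, −0.23 against −0.15 in MEC1, −0.04 against 0.22 in JVM2 and 0.17 against 0.27 in EHEB. Reads from a snoRNA and its host cannot be told apart in these counts.

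The small subunit factors followed the general split with ibrutinib in MEC1 and JVM2, with idelalisib in EHEB and with fludarabine. With ibrutinib 8 of 14 rose in MEC1 and 7 in JVM2, against 1 and 2 that fell. Of all genes 23.7% and 14.5% rose and 23.9% and 15.0% fell there. With idelalisib 9 of 14 fell in EHEB and 0 rose (18.2% and 15.1% of all genes). In JVM2 idelalisib moved these factors both ways, with UTP20 higher by 0.95 and RRP12 lower by −0.51. With fludarabine 10 rose and 2 fell in JVM2 (23.9% and 23.3% of all genes) and 7 and 1 in EHEB (18.4% and 19.2%). In MEC1, 1 rose and 4 fell with fludarabine (21.2% and 22.7%). RRP12 showed the largest rises of the role with fludarabine. In EHEB it went from 52.03, 52.3 and 49.5 CPM with DMSO to 100.4, 99.9 and 100.4 with fludarabine (0.97 ± 0.06, adjusted p = 5.54e-07). In JVM2 it went from 30.7, 30.1 and 31.7 to 56.7, 57.8 and 60.2 (0.92 ± 0.07, adjusted p = 1.01e-06). In MEC1 it was at 52.95, 46.9 and 50.5 and 60.3, 47.98 and 57.7 (0.14 ± 0.12, adjusted p = 0.356), with overlap. The fludarabine effect was lower in MEC1 than in JVM2, −0.75 ± 0.11 (adjusted p = 7.08e-05), and than in EHEB, −0.76 ± 0.11 (adjusted p = 5.56e-05), by the interaction test. With idelalisib RRP12 fell in all 3 lines, by −0.78 ± 0.12 (adjusted p = 0.00018), −0.51 ± 0.07 (adjusted p = 0.000127) and −0.39 ± 0.06 (adjusted p = 0.000639).

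UTP4, a subunit that joins the processome early, rose with fludarabine in all 3 lines, as did POLR1A and NOP2. These 3 are 6.12% of the 49 members tested in every line, near the 5.1% of all genes that rose in each. FBL and NPM1 fell in all 3 lines with fludarabine, 4.08% of members against 8.05% of all genes. In MEC1 UTP4 went from 54.5, 50.8 and 53.2 CPM to 87.6, 79.3 and 87.6 (0.68 ± 0.07, adjusted p = 1.81e-05). The rises in JVM2 and EHEB were 0.23 ± 0.05 and 0.31 ± 0.06. UTP20 rose in JVM2 with each drug, from 36.6, 34.8 and 34.6 CPM to 50.3, 43.1 and 46.9 with fludarabine, 57.2, 54.7 and 60.9 with ibrutinib and 67.3, 65.3 and 72.8 with idelalisib, the last by 0.95 ± 0.07 (adjusted p = 1.71e-06). In MEC1 it rose with ibrutinib (0.54 ± 0.07, adjusted p = 0.000119) and fell with fludarabine (−0.24 ± 0.07), a fall that became 0.01 when libraries were scaled by total counts and was lost without any of DMSO libraries MEC1_38 and MEC1_39 and fludarabine libraries MEC1_47 and MEC1_48 (adjusted p from 0.0531 to 0.0648).

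LTV1 and RRP9 rose with ibrutinib. LTV1, an assembly factor of the pre-40S particle, was at 4.16, 5.47 and 5.44 CPM with DMSO and 9.24, 10.2 and 10.6 with ibrutinib in MEC1 (1.00 ± 0.13, adjusted p = 7.15e-05). RRP9, which binds the U3 snoRNA, rose with ibrutinib in JVM2 from 9.17, 11.003 and 11.2 to 18.5, 15.2 and 18.1 (0.72 ± 0.11, adjusted p = 0.000664) and in EHEB from 18.6, 17.9 and 17.4 to 23.4, 24.95 and 27.1 (0.49 ± 0.10, adjusted p = 0.00548). The MEC1 rise (0.51 ± 0.16) did not hold without DMSO library MEC1_38 (0.0792) or ibrutinib library MEC1_184 (0.104). NOP14, a processome subunit, went from 85.6, 87.4 and 101.8 CPM to 147.2, 149.1 and 150.2 with fludarabine in EHEB (0.70 ± 0.09, adjusted p = 8.34e-05), and its idelalisib effect was lower in MEC1 than in JVM2, −1.06 ± 0.13 (adjusted p = 6.41e-06).

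NOB1, the endonuclease that makes the mature end of the small subunit RNA, fell in 7 of 9 comparisons. In JVM2 it went from 116.2, 120.2 and 126.2 CPM with DMSO to 74.6, 76.8 and 63.8 with fludarabine, 91.5, 73.4 and 76.5 with ibrutinib and 69.5, 63.7 and 61.1 with idelalisib, each clear of DMSO. The changes were −0.75 ± 0.10 (adjusted p = 6.77e-05), −0.59 ± 0.10 (adjusted p = 0.001) and −0.90 ± 0.10 (adjusted p = 2.51e-05). In MEC1 they were −0.59 ± 0.07, −0.38 ± 0.07 and −0.51 ± 0.07. In EHEB it fell with idelalisib only (−0.32 ± 0.09), which was lost without any of DMSO library EHEB_133 and idelalisib libraries EHEB_286 and EHEB_288 (0.0688 to 0.0991). DDX10 and TSR1 also fell with idelalisib in each line. In all, 9 members fell with idelalisib in all 3 lines (18.4% of 49), where 6.0% of all genes did: DDX10, DDX21, FBL, MXI1, NCL, NOB1, PA2G4, RRP12 and TSR1.

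**Figure D4:**
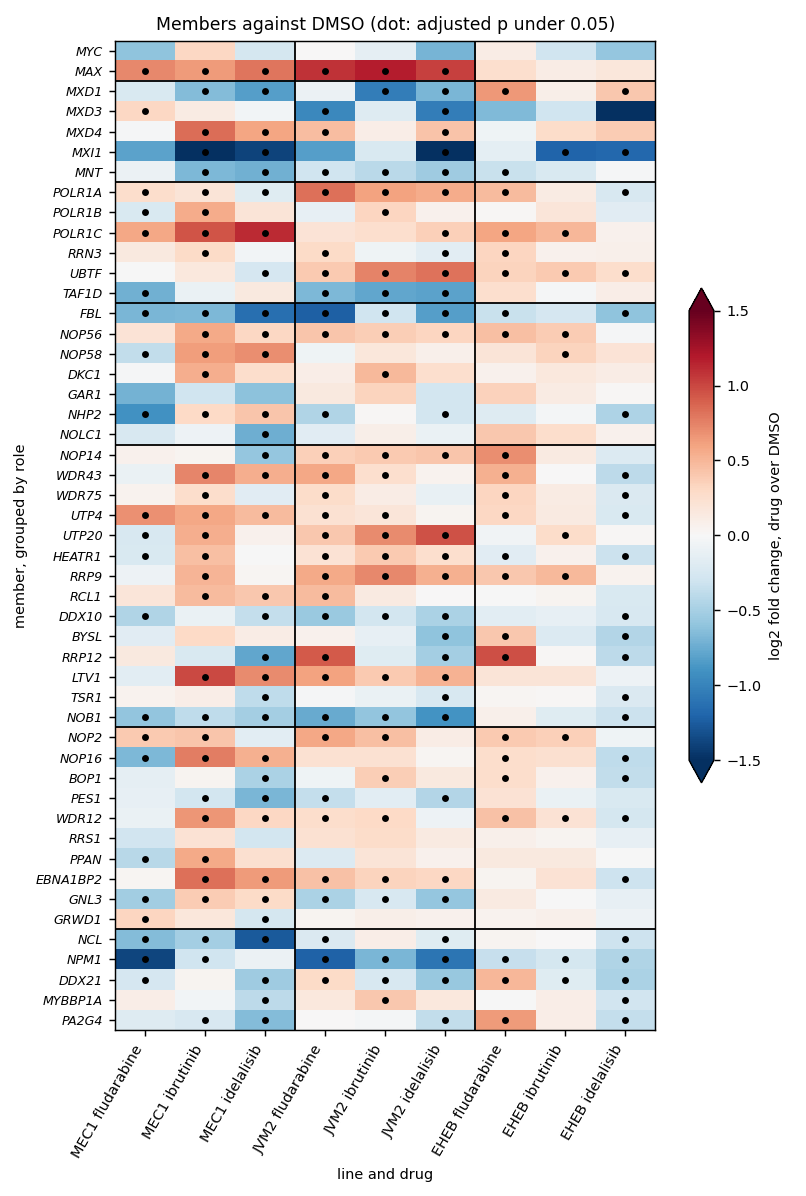
Log2 fold change against DMSO of 49 members (rows, grouped by role) in the 9 line and drug comparisons (columns), from blue (lower) to red (higher), with a dot where the gene was called and colours ending at 1.5 in either direction. NPM1 and FBL are blue in 8 called comparisons each, MAX is red in the MEC1 and JVM2 columns, and the EHEB idelalisib column has 22 dots on blue and 2 on red; UTP20 with fludarabine in MEC1 turns to 0.01 under library size scaling.

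Among large subunit factors, NOP2 and WDR12 rose with ibrutinib in all 3 lines. NOP2 in EHEB went from 42.8, 41.6 and 41.8 CPM with DMSO to 53.7, 53.1 and 55.02 (0.36 ± 0.07, adjusted p = 0.00327). In MEC1 it went from 27.8, 31.03 and 27.9 to 42.4, 33.8 and 39.8 (0.42 ± 0.10, adjusted p = 0.00526). In JVM2 it went from 23.2, 24.02 and 25.6 to 31.7, 32.6 and 35.4 (0.45 ± 0.08, adjusted p = 0.00165). With fludarabine it rose in the 3 lines too, by 0.39 ± 0.10, 0.58 ± 0.08 and 0.39 ± 0.07. NOP16 fell with one drug and rose with another in MEC1. There it stood at 14.6, 14.2 and 16.4 CPM with DMSO, 10.96, 9.93 and 7.31 with fludarabine (−0.68 ± 0.14, adjusted p = 0.00203) and 27.02, 23.2 and 26.5 with ibrutinib (0.77 ± 0.13, adjusted p = 0.000701). Over the role, in MEC1 ibrutinib raised 6 of 10, in JVM2 it raised 4 and in EHEB it raised 2 (23.7%, 14.5% and 8.5% of all genes). With idelalisib 4 fell and 0 rose in EHEB (18.2% and 15.1% of all genes).

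NPM1, the most abundant member, fell in 8 of 9 comparisons, with the largest falls under fludarabine in MEC1 and JVM2. In MEC1 it went from 1115.5, 1054.6 and 1122.4 CPM with DMSO to 445.7, 407.01 and 415.6 with fludarabine (−1.38 ± 0.06, adjusted p = 8.59e-08). In JVM2 it went from 1200.5, 1260.2 and 1373.6 to 599.2, 581.3 and 468.03 (−1.22 ± 0.09, adjusted p = 9.89e-07). In EHEB it went from 740.9, 754.1 and 742.7 to 593.9, 592.7 and 568.7 (−0.35 ± 0.04, adjusted p = 3.92e-05). The fall was deeper in MEC1 than in EHEB by the interaction test, −0.96 ± 0.10 (adjusted p = 4.66e-06). With idelalisib it stood at 1042.4, 973.1 and 1087.2 in MEC1, not called, and fell in JVM2 (−1.09 ± 0.09, adjusted p = 3.43e-06) and EHEB (−0.45 ± 0.04, adjusted p = 8.12e-06). The annotation names 49 pseudogenes of NPM1, so its counts may be split among copies.

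NCL fell with every drug in MEC1, where DMSO libraries held 515.03, 514.6 and 612.6 CPM and fludarabine libraries 340.8, 348.9 and 354.6. The changes were −0.65 ± 0.10 (adjusted p = 0.000281), −0.51 ± 0.10 (adjusted p = 0.00128) and −1.26 ± 0.10 (adjusted p = 1.28e-06), and the idelalisib effect was lower in MEC1 than in JVM2, −1.14 ± 0.09 (adjusted p = 8.19e-08). In JVM2, with 281.1, 290.5 and 298.4 with DMSO, it fell with fludarabine (−0.22 ± 0.05) and idelalisib (−0.18 ± 0.05), but under library size scaling these became −0.02 and −0.08 and were not called. DDX21 split with fludarabine, rising in EHEB from 213.9, 223.5 and 213.1 to 302.9, 314.1 and 304.97 CPM (0.50 ± 0.05, adjusted p = 9.85e-06) and in JVM2 (0.29 ± 0.05). In MEC1 it was lower (−0.25 ± 0.07, adjusted p = 0.0153), a call that went to −0.0039 under library size scaling and was lost without DMSO library MEC1_38 (0.0548) or fludarabine library MEC1_47 (0.0600).

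**Figure D5:**
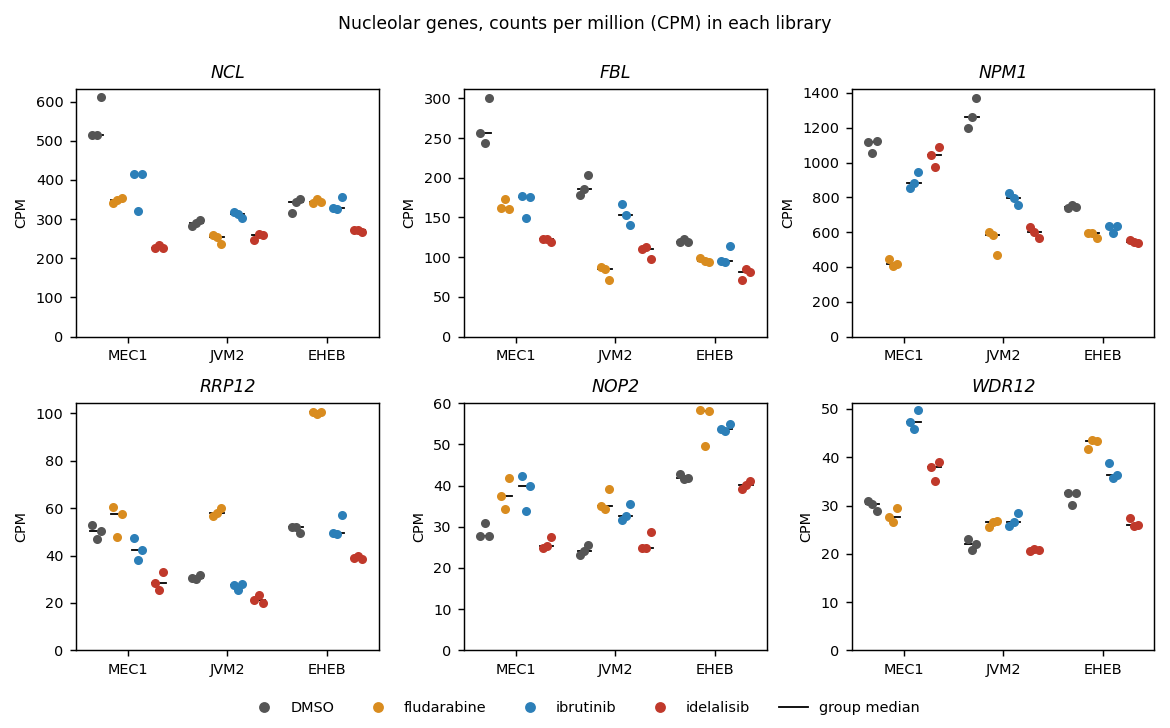
Level of 6 nucleolar genes in each of the 36 libraries, in CPM from 0, with points coloured by treatment and a line at the median of each group of 3. In every panel but NPM1 the idelalisib points lie under the ibrutinib points of the same line, RRP12 reaches 99.9 to 100.4 CPM with fludarabine in EHEB, and NPM1 is lowest with fludarabine in MEC1.

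Summed over the 42 nucleolar genes, the share of all counts was as follows. In MEC1 the DMSO libraries gave 0.416% ± 0.0089 (SD, n = 3), those of fludarabine 0.360% ± 0.012, of ibrutinib 0.428% ± 0.024 and of idelalisib 0.325% ± 0.0061. In JVM2 it was 0.346% ± 0.0054, 0.323% ± 0.0043, 0.330% ± 0.0034 and 0.285% ± 0.00092. In EHEB it was 0.335% ± 0.00060, 0.399% ± 0.0094, 0.361% ± 0.0062 and 0.300% ± 0.0024. Idelalisib gave the lowest share in each line, and fludarabine the highest in EHEB. The sum is weighted to the most abundant genes, so it does not describe a typical member. NPM1 alone held 45859 of 43291288 counts in DMSO library MEC1_37 and 15371 of 29889352 in fludarabine library MEC1_46. In JVM2 it held 40853 of 35479702 in DMSO library JVM2_85 and 23629 of 37599752 in idelalisib library JVM2_238. The falls of the sum in these 2 comparisons may thus come largely from NPM1.

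Fludarabine against the inhibitors separated the lines. Against ibrutinib 3 members were higher and 25 lower in MEC1 (26.0% and 25.4% of all genes, 51.4% in all), 8 and 15 in JVM2 (20.9% and 21.7%), and 15 and 2 in EHEB (16.7% and 16.6%). Against idelalisib 20 were higher and 16 lower in MEC1 (29.3% and 26.9%, 56.2% in all), 14 and 4 in JVM2 (20.4% and 20.7%), and 28 and 2 in EHEB (22.5% and 20.3%). With library size scaling the splits against ibrutinib became 11 to 17 in MEC1 and 16 to 9 in JVM2, and against idelalisib 24 to 8 in MEC1, with all-gene medians moved by 0.18, 0.12 and 0.35. RRP12 and MXD1 were higher and HEATR1 and UTP20 lower with fludarabine than with ibrutinib in all 3 lines. That is 4.08% of 49 members in each direction, below the 5.47% of all genes that were higher and the 5.21% that were lower. Against idelalisib DDX21, NOP2, PA2G4, POLR1A, RRP12, TSR1, UTP4 and WDR75 were higher with fludarabine in all 3, 16.3% of 49 members against 6.8% of all genes.

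Other genes of the pathway are given by the fixed rule for named genes, from lists chosen with earlier results known. In the 9 comparisons with DMSO, ENO1, an enzyme of glycolysis and a known MYC target, fell in 7, by −1.35 to −0.51, and PHB, which encodes prohibitin, rose in 7, by 0.34 to 0.54. Of the polymerase I genes ZNRD1 and POLR1E each fell in 7, by −1.14 to −0.31 and −1.13 to −0.24, and ZNRD1 rose with idelalisib in MEC1 (0.24, adjusted p = 0.0489). Among small subunit factors DDX52 rose in 7 (0.41 to 0.80) and NAT10, which acetylates ribosomal RNA, fell in 7 (−0.68 to −0.24). Among large subunit factors RSL24D1 and NLE1 each fell in 7 (−1.19 to −0.24 and −0.95 to −0.22), and RSL24D1 rose with idelalisib in MEC1 (0.59, adjusted p = 6.42e-05). Of the snoRNP assembly genes RUVBL1 rose in 5 (0.20 to 0.65) and fell with fludarabine in MEC1 (−0.30, adjusted p = 0.00351), and PIH1D1 fell in 4 (−0.61 to −0.40).

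POLR3B and POLR3C, subunits of RNA polymerase III, which makes 5S RNA and transfer RNAs, each rose in 8 of 9 comparisons, by 0.42 to 1.38 and 0.24 to 0.46. Of the exosome, EXOSC10 rose in 8 (0.16 to 0.46) and EXOSC5 fell in 6 (−1.11 to −0.46). MLX, a partner of the related MondoA branch, fell in 3. MYCL fell in MEC1 with ibrutinib (−0.70) and idelalisib (−1.52) and rose there with fludarabine (1.09, adjusted p = 4.46e-05). The 20 other MYC-activated genes gave 3 higher and 11 lower with fludarabine in MEC1, 5 and 13 in JVM2, and 4 and 6 of 19 in EHEB. With ibrutinib the numbers were 8 and 6, 5 and 3, and 1 and 5, and with idelalisib 3 and 8, 2 and 10, and 0 and 14. The 108 other nucleolar genes gave 14 and 33, 38 and 16, and 29 and 7 with fludarabine, 41 and 22, 28 and 14, and 9 and 5 with ibrutinib, and 34 and 45, 25 and 27, and 6 and 26 with idelalisib. Of all genes, 21.2% rose and 22.7% fell with fludarabine in MEC1, 23.9% and 23.3% in JVM2, and 18.4% and 19.2% in EHEB. With ibrutinib these shares were 23.7% and 23.9%, 14.5% and 15.0%, and 8.5% and 11.2%. With idelalisib they were 27.6% and 27.4%, 21.6% and 22.6%, and 15.1% and 18.2%. The list of 108 lay near them with idelalisib in JVM2 and in its rises with ibrutinib in EHEB.

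The lines differed in their response by the interaction test, in which each line's effect against its own DMSO is compared. With fludarabine 17 members differed between MEC1 and JVM2, 20 between MEC1 and EHEB and 16 between JVM2 and EHEB, where 25.2%, 29.4% and 22.2% of all genes did. With ibrutinib the numbers were 18, 17 and 10 (25.9%, 26.4% and 12% of all genes), and with idelalisib 26, 26 and 21 (35%, 38% and 21.3%). With fludarabine 14 of the 17 members that differed between MEC1 and JVM2, and 18 of the 20 between MEC1 and EHEB, were lower in MEC1. Of all genes 11.7% were lower and 13.5% higher in MEC1 in the first comparison, and 12.4% and 16.9% in the second. Since the lines were exposed for different times, line and time cannot be told apart here.

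A pair of gene structures limits single values. PPAN, a large subunit factor, shares exons with the readthrough gene PPAN-P2RY11, whose counts jumped between 0 and 801 among libraries, from 689 and 642 to 0 in the MEC1 DMSO libraries. Of the 50 genes 32 overlap a gene on the other strand and 20 a gene on their own strand other than snoRNAs, and whether the counting used strand is not given in the sources used here.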

How the data were processed

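RNA depleted of ribosomal RNA was sequenced from 36 libraries, 3 per line and treatment. Per the labels and the study's methods, the authors trimmed reads with Trimmomatic, aligned them to GRCh38 with HISAT2 2.1, assigned them to the Ensembl annotation with StringTie 1.3.4 and used edgeR 3.22.5; for the annotation release and the strand setting the sources used here give nothing. The deposited values are expected counts per gene symbol, already whole. Low values piled up at 3, 6, 8, 11 and 14, so 1 read may stand for about 8/3 counts. The 1 row with a blank symbol (0.00384% of counts) was left out.

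Each line was fitted alone with all 12 of its libraries in edgeR 4.0.16 (R 4.3.3): TMM scaling, filterByExpr with a count minimum of 10 and a total of 15, the quasi-likelihood test, and Benjamini-Hochberg adjustment over all genes tested, with 0.05 as the threshold. Effects were compared between lines by the line by treatment interaction over the 18 libraries of DMSO and 1 drug. CPM are TMM-scaled within a line and are not comparable between lines. Levels per length used the merged exons of GENCODE 44 and all 36 libraries scaled together. Depth was 26590705 to 53538925 counts, with a median of 42114145.5.

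The 50 members, the other gene lists and the tests were chosen with earlier results of these data known. Genes given with values were the 8 MYC network genes, the 2 nucleolar genes with the largest called rise and fall without overlap in each comparison with DMSO, up to 5 genes called one way most often, up to 5 called both ways with the widest gap, and up to 2 genes of each other list called one way most often. The genes lower with idelalisib than with ibrutinib in all 3 lines, and others beyond this rule, were chosen after their values were seen. On data simulated for fludarabine against DMSO in MEC1, edgeR recovered 71.5% of 200 genes changed by 1 on the log2 scale, with 4 false calls among 17043 genes.

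Alternatives were DESeq2 1.42.0, library size scaling in place of TMM, voom in limma 3.58.1, no filter, a mean of at least 5 CPM, only the 6 libraries compared, all 36 libraries together, and each library left out in turn. Added after seeing the data were counts divided by 8/3 and a fit without the 3 libraries low in MYC. Figures were drawn with matplotlib 3.10.9.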

Additional observations from a re-analysis of the deposited data

Results flagged for a closer look

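The results below were singled out because the effect of the same drug differed between cell lines by the interaction test of edgeR (adjusted p under 0.05). The outlier test for single samples needs larger groups and was not run on these groups of 3. With fludarabine 17 members differed between MEC1 and JVM2, 20 between MEC1 and EHEB and 16 between JVM2 and EHEB. With ibrutinib 18, 17 and 10 members differed in the same pairs of lines, and with idelalisib 26, 26 and 21. Of all genes 25.2%, 29.4% and 22.2% differed with fludarabine, 25.9%, 26.4% and 12% with ibrutinib, and 35%, 38% and 21.3% with idelalisib. Among single genes, the fludarabine effect in MEC1 minus that in EHEB was −0.99 for GAR1 and −0.96 for NPM1. The ibrutinib effect in JVM2 minus that in EHEB was −1.11 for MXD1 and 1.07 for MAX. The idelalisib effect in MEC1 minus that in EHEB was 1.503 for MXD3 and −1.28 for MXD1. GAR1 was called in 0 of its 9 comparisons with DMSO, and MXD3 with idelalisib in neither MEC1 nor EHEB. Replicates of both scattered, with ratios of highest to lowest of up to 2.09 for GAR1 and 11.3 for MXD3. The idelalisib libraries of EHEB held 98, 53 and 168 counts of MXD3. The lines were exposed for different times, so line and time cannot be told apart.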

How the results depend on the processing

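No paired analysis was possible because the groups share no replicate numbers. Leaving out 1 library at a time left 793 values of single genes on the same side of the threshold and took 71 below it, with no change of sign. Under the other alternatives 1216 such values stayed on the same side, 44 were no longer called, and 1 turned its direction: UTP20 with fludarabine in MEC1 became 0.012 under library size scaling. The number of members called differed by more than 1.5 times from the value reported in few settings. In JVM2, idelalisib against ibrutinib gave 14 without a filter. In EHEB, ibrutinib against DMSO gave 19 under library size scaling and 7 from only the 6 libraries compared. The ibrutinib effect differed between MEC1 and EHEB for 10 members without a filter. With 1 library left out, members called ranged from 7 to 12 for ibrutinib in EHEB, from 15 to 21 for idelalisib in EHEB and from 14 to 18 for idelalisib against ibrutinib in JVM2. Members whose ibrutinib effect differed ranged from 11 to 15 between MEC1 and EHEB and from 6 to 9 between JVM2 and EHEB. The lowest values came without DMSO library EHEB_134 (11) and without DMSO library EHEB_135, DMSO library JVM2_86 or ibrutinib library JVM2_233 (6). Genes lower with idelalisib than with ibrutinib in all 3 lines numbered 7 to 11 under the other alternatives. The cause of these shifts was not tested.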
